A study of Mus musculus with 28 samples.

Results

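The lysosomal gene module described here consists of 51 genes, chosen by name: the genes of the cathepsins and other lysosomal proteases, of the glycosidases, sulfatases and lipid hydrolases of the lysosomal lumen, of the main proteins of the lysosomal membrane, and of a few proteins that regulate them. Earlier results of these data were known when the 51 were chosen. All 51 were among the 24421 genes counted in every library. They were split by the known role of the product into 15 proteases, 16 glycosidases and sulfatases, 9 lipid hydrolases and lipid-binding cofactors, 7 membrane proteins, and 4 regulators and other lumenal proteins. After a filter on low counts 50 of the 51 were tested, along with 13159 genes in all. The exception was Ctsk, the gene of cathepsin K, which had 6 counts in 1 cDC2_WT library and none in any other library.

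The libraries are bulk RNA-seq profiles of dendritic cells (DCs), sorted from spleens of untreated C57Bl/6 mice 6 to 12 weeks old. Plasmacytoid DCs of Irf8fl/fl Itgax-cre mice (pDC_TG, 4 libraries) carry a floxed Irf8 gene, the gene of a transcription factor of the interferon regulatory factor family, and a Cre recombinase driven by the regulatory sequence of Itgax, the CD11c gene. CD24+ conventional type 1 DCs (cDC1_WT, 8 libraries), CD172a+ conventional type 2 DCs (cDC2_WT, 8 libraries) and plasmacytoid DCs (pDC_WT, 8 libraries) came from Irf8fl/fl mice, which carry the same floxed gene but no Cre, and the labels name them WT. Itgax is active in DCs in general and in some other leukocytes, so this Cre is not specific to pDCs. The labels give each library a number within its group. The submitters' design text speaks of 4 replicates per sample, whereas each WT group has 8 libraries. The reason for this difference is not known here. All 8 were used, and the first 4 and the last 4 of each WT group were also fitted alone as alternatives. Whether a library came from 1 animal or from a pool is not given in the sources used here. All p-values measure the spread between these libraries.

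Lysosomes are acidic compartments in which proteins, glycans and lipids taken up from outside the cell or delivered by autophagy are broken down. Proteases such as the cathepsins cut internalised proteins into the peptides that MHC class II molecules present, and they also trim the invariant chain and the endosomal Toll-like receptors by which pDCs sense nucleic acids. Glycosidases and sulfatases take sugar chains apart, lipid hydrolases work with small lipid-binding cofactors such as the saposins, and highly glycosylated membrane proteins line the lysosome and carry its channels and transporters. Many of these genes are targets of the transcription factor TFEB, which binds an E-box with the core CACGTG. IRF8 and the ETS factor PU.1 bind composite elements of GGAA and GAAA in myeloid cells, and interferon regulatory factors bind repeats of GAAA.

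The total of gene counts in a library ranged from 22805201 to 28725550 in pDC_TG, from 23592099 to 30152305 in cDC1_WT, from 20696141 to 29351715 in cDC2_WT and from 17299285 to 30787679 in pDC_WT. Levels are given as counts scaled to a common library size (CPM). Irf8 averaged 1461 ± 257 CPM in pDC_TG, 4024 ± 168 in cDC1_WT, 72.2 ± 14.6 in cDC2_WT and 6144 ± 459 in pDC_WT (SD). Siglech, Xcr1 and Sirpa fitted the labels. Siglech was at 1454 and 2298 CPM in pDC_TG and pDC_WT and under 1 CPM in both cDC groups. Xcr1 was highest in cDC1_WT (1153 CPM) and Sirpa in cDC2_WT (1233 CPM). Transcripts of 9 neutrophil genes summed to 196 CPM in pDC_TG replicate 4, against at most 4.59 CPM in any other pDC_TG library and at most 2.62 CPM in any pDC_WT library. The 5 plasma cell genes summed to 1109 to 1329 CPM in pDC_TG and 214 to 384 CPM in pDC_WT. Most of the sum in pDC_TG was Sdc1 (1108 CPM), which was at 51.2 CPM in pDC_WT. Of the 5 genes, 2 were called higher and 1 lower in pDC_TG. The 6 cDC1 genes summed to 32.1 to 40.9 CPM in pDC_TG and 111 to 177 CPM in pDC_WT. The 6 cDC2 genes were abundant in pDCs too, with sums of 1140 to 1360 CPM in pDC_TG and 1118 to 1587 CPM in pDC_WT. Their sums were 2010 to 2331 CPM in cDC2_WT and 25.8 to 38.8 CPM in cDC1_WT. Reads outside genes were most frequent among the pDCs in pDC_WT replicates 5 and 8 (18.7% and 17.2% of a library's counted reads), against 12.8% to 14.8% in pDC_TG and 12.4% to 15.9% in the other pDC_WT libraries. The part of these differences in the results below was not tested beyond the fits without those libraries. In bulk libraries, fewer cells that express a gene and less RNA per cell cannot be told apart.

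Promoter windows, from 250 bases before to 50 bases after the annotated start, were on hand from RefSeq (mouse build GRCm38.p6) for 44 of the 51 genes. The E-box core CACGTG, read on both strands, was present in the windows of 13 of these 44 genes (29.5%), compared with 8.09% of the 27025 genes with a window. The 13 were Ctsa, Ctsd, Ctsf, Ctsl, Lgmn, Lamp1, Gaa, Gla, Glb1, Arsa, Sgsh, Mcoln1 and Ifi30. The longer form TCACGTG was in 11 of the 44 (25.0%) and in 4.29% of all genes, and each of its matches contains the core. The palindrome that extends the core by GT before it and AC after it was in 0 of the 44 and in 0.37% of all genes. A form this rare cannot be compared over 44 genes. The composite element, searched as GGAA and GAAA with any 2 bases between them, was in 2 (Cd68 and Scarb2, 4.55%) and in 3.16% of all genes. The repeat, searched as GAAA and GAAA with any 2 bases between them, was in 3 (Ctso, Ctss and Lamp1, 6.82%) and in 3.99% of all genes. The windows below were picked for their matches and belong to genes that were lower in pDC_TG. Lamp1, the classical lysosomal marker, which was not called, was added as the window with the most E-box cores (4). Galc and Psap, whose changes were larger, have windows without any match and are not shown. Of the 17 genes lower in pDC_TG that had a window, 3 carry the core (Gaa, Glb1 and Mcoln1), against 13 of all 44 members. The core was thus not more frequent among the lower genes. The composite element was in 2 of the 17 (Cd68 and Scarb2), against 2 of the 44, and the repeat in 1 (Ctss), against 3 of the 44. Capitals mark every match to CACGTG, the composite element or the repeat on either strand, and each sequence is written along the strand of its gene. A match describes letters only, and binding was not measured. The windows are at chr8:13158911-13159210, plus strand (Lamp1), chr8:3500269-3500568, plus strand (Mcoln1), chr11:119267713-119268012, plus strand (Gaa), chr9:114400828-114401127, plus strand (Glb1), chr11:69666121-69666420, minus strand (Cd68), chr5:92505608-92505907, minus strand (Scarb2) and chr3:95526536-95526835, plus strand (Ctss).
Lamp1: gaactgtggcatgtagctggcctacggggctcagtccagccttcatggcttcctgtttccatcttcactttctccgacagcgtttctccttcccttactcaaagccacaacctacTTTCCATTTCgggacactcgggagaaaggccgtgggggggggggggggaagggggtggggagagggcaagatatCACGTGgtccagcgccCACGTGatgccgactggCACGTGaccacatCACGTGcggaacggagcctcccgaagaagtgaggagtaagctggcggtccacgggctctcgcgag
Mcoln1: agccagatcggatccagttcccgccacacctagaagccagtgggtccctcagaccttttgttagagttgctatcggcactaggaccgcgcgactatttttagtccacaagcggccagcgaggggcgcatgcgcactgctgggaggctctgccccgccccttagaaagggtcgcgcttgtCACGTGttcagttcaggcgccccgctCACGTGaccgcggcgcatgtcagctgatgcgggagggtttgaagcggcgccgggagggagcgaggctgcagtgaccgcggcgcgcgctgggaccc
Gaa: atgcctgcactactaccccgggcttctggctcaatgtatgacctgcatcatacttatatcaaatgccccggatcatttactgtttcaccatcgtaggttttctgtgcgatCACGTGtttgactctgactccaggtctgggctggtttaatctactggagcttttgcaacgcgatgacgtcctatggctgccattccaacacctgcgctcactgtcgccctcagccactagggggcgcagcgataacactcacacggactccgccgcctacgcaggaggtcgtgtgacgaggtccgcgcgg
Glb1: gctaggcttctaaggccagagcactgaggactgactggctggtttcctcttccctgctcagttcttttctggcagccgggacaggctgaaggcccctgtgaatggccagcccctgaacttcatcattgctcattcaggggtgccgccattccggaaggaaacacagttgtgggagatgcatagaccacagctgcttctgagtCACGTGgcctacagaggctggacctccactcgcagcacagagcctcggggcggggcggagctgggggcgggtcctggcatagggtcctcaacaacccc
Cd68: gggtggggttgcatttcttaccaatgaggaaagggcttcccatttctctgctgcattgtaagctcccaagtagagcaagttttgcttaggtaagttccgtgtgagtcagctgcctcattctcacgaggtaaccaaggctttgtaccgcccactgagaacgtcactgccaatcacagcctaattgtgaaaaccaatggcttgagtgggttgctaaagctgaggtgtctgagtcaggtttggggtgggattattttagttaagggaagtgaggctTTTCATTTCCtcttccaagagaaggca
Scarb2: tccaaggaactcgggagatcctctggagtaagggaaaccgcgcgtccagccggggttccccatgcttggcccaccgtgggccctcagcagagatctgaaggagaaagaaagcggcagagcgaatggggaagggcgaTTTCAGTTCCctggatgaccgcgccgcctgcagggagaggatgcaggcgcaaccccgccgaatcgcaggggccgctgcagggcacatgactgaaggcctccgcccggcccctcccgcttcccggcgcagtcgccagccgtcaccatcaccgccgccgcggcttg
Ctss: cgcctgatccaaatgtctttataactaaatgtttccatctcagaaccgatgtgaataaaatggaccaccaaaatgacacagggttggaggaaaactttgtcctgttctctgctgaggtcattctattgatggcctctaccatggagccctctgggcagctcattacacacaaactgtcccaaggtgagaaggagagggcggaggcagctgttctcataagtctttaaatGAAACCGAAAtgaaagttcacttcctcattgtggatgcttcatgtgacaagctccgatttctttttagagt

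The share of transcripts from each class differed between the DC types. The 51 genes together took 2.51 ± 0.116% of gene counts in pDC_TG (SD, n = 4), 5.59 ± 0.177% in cDC1_WT, 2.10 ± 0.113% in cDC2_WT and 3.50 ± 0.254% in pDC_WT (n = 8 each). The highest pDC_TG library (2.63%) lay below the lowest pDC_WT library (3.10%). Proteases took 1.19 ± 0.0329% in pDC_TG, 0.283 ± 0.00665% in cDC1_WT, 0.613 ± 0.0209% in cDC2_WT and 1.53 ± 0.0520% in pDC_WT, so that pDCs held the most and cDC1 the least. Lipid hydrolases and their cofactors were highest in cDC1_WT, at 0.611 ± 0.0459% in pDC_TG, 2.88 ± 0.218% in cDC1_WT, 0.942 ± 0.0937% in cDC2_WT and 1.05 ± 0.145% in pDC_WT. Glycosidases and sulfatases took 0.138 ± 0.0137%, 0.402 ± 0.0246%, 0.178 ± 0.0126% and 0.176 ± 0.0195% in pDC_TG, cDC1_WT, cDC2_WT and pDC_WT. Membrane proteins took 0.148 ± 0.00725%, 0.0817 ± 0.00730%, 0.128 ± 0.00935% and 0.214 ± 0.0106% in the same order. These sums are shares of all gene counts and weigh abundant genes most, such as Cst3 and Psap in cDC1_WT.

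**Figure D1:**
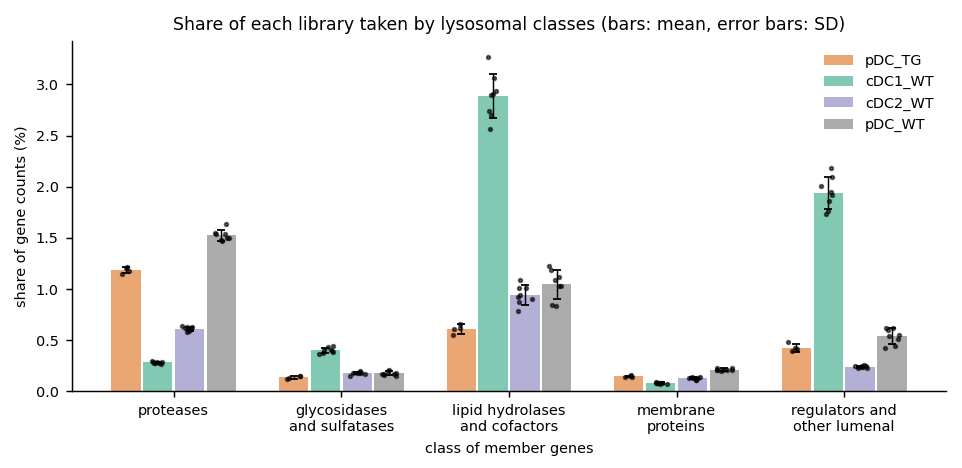
Share of each library's gene counts taken by the 5 classes of lysosomal genes, in percent (y axis), for pDC_TG (n = 4) and the 3 WT groups (n = 8 each); bars are means, error bars SD and points single libraries. Proteases are highest in the pDC groups, and lipid hydrolases and regulators are highest in cDC1_WT.

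Per length, the gene with the highest mean differed between the plasmacytoid and the conventional groups, clearly so only for cDC1_WT. In cDC2_WT, Cst3 and Psap lay within their spread of each other. Psap, which encodes the precursor of the 4 saposins that help hydrolases reach sphingolipids, ranked first in pDC_TG (1264 ± 126 CPM per kb of exon) and in pDC_WT (2564 ± 517). Cst3, the gene of the secreted cysteine protease inhibitor cystatin C, ranked first in cDC1_WT (23579 ± 2351 CPM per kb) and in cDC2_WT (1466 ± 136). Psap was second in both of these groups, at 5441 ± 584 and 1402 ± 303 CPM per kb. In cDC1_WT these were followed by Ppt1 (1939 ± 196), Gm2a (1385 ± 103) and Naaa (1150.2 ± 98.7), all of the lipid class. In pDC_WT the genes that followed were Grn (1557 ± 319), Ctsh (1496 ± 119) and Ctsb (1207 ± 71.6). Among the 50 tested members, 3 had their highest mean level in pDC_TG, 15 in cDC1_WT, 10 in cDC2_WT and 22 in pDC_WT. The lowest mean was in cDC1_WT for 26 members, 13 of them proteases.

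**Figure D2:**
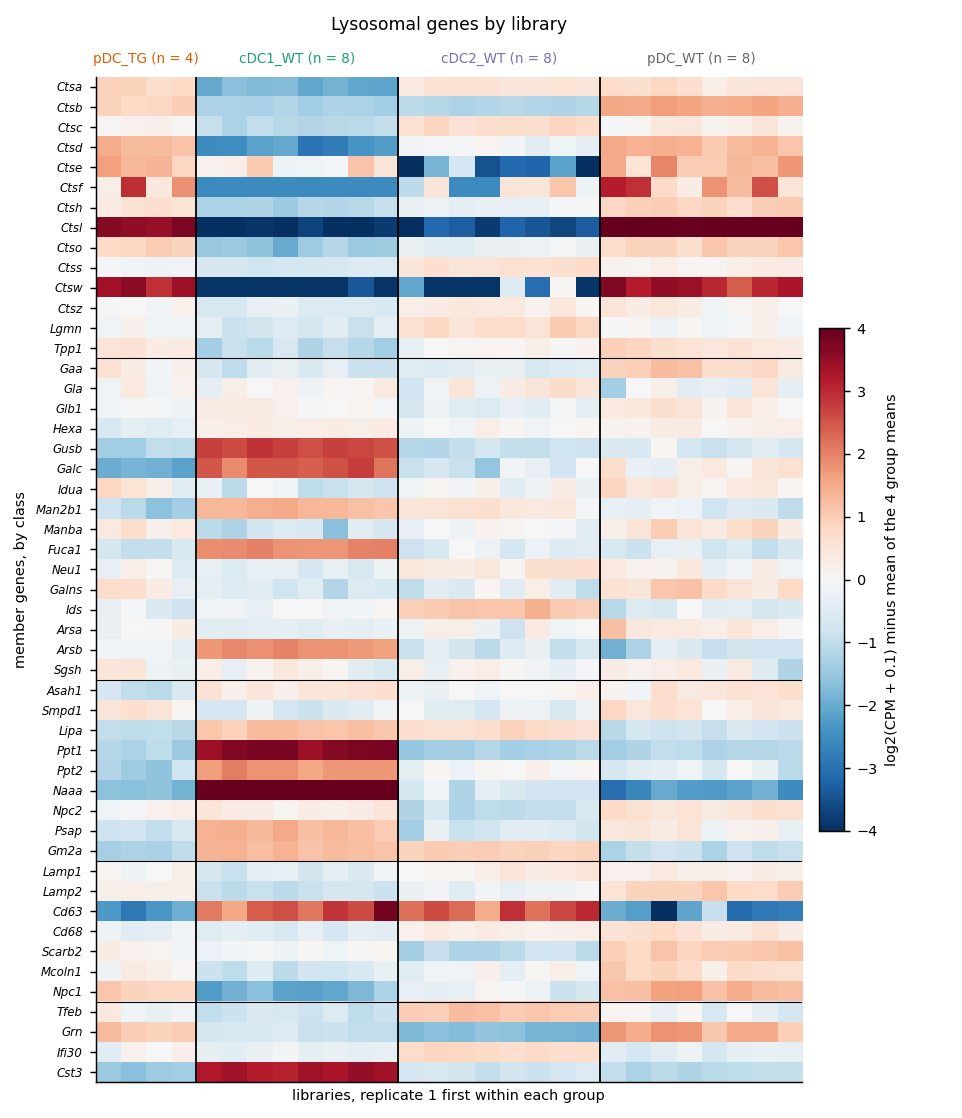
Level of the 50 tested genes (rows, by class) in each of the 28 libraries (columns), as log2(CPM + 0.1) minus the mean of the 4 group means; red is above and blue below that mean, and colours stop at 4 in either direction. Ctsl and Ctsw stand out as high in both pDC groups, and Naaa, Ppt1, Gusb and Cst3 as high in cDC1_WT.

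In pDCs of Irf8fl/fl Itgax-cre mice, lysosomal genes that differed from control pDCs were nearly all lower, among them 5 of 9 lipid hydrolases and cofactors and 4 of 7 membrane proteins. Of the 50 tested members, 20 were lower and 3 higher in pDC_TG at an adjusted p below 0.05 (edgeR's quasi-likelihood test, adjusted by Benjamini-Hochberg over all genes tested), and 27 did not pass. The 20 make up 40.0% of the members, compared with 7.04% of all genes tested that were lower. The 3 make up 6.00%, compared with 7.72% of all genes that were higher, and together 14.8% of all genes passed. The members were chosen with earlier results of these data known, so these shares describe the module and do not test it. The median log2 fold change (log2FC, pDC_TG minus pDC_WT) was -0.23 for the members and 0.00 for all genes tested, and 41 of the 50 values were negative. For 16 members all pDC_TG libraries lay below all pDC_WT libraries, compared with 4.81% of all genes, and for 1 member (Naaa) all lay above, compared with 4.90%. Galc, Asah1 and Psap were at least 2-fold lower, compared with 2.33% of all genes, and no called member was 2-fold higher, compared with 3.88%. Without pDC_TG replicate 4, the library with neutrophil transcripts, the same 23 members passed, and they also passed without pDC_WT replicates 5 and 8, a setting chosen after seeing the data. With WT replicates 5 to 8 as the only controls, 17 of the 23 still passed and Gaa, Glb1, Gm2a, Grn, Man2b1 and Mcoln1 did not (adjusted p 0.0572 to 0.229). With WT replicates 1 to 4 as the only controls, 21 of the 23 passed and Arsb and Gm2a did not (adjusted p 0.056 and 0.0883).

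**Figure D3:**
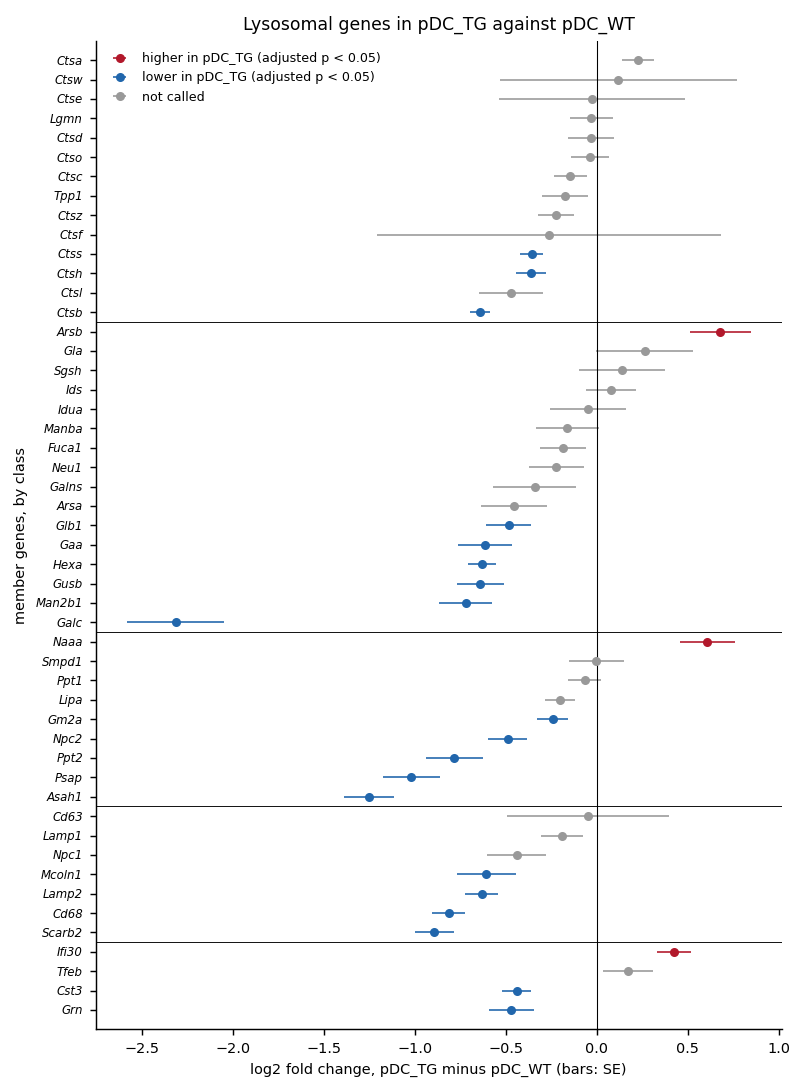
log2 fold change of each tested gene in pDC_TG (n = 4) against pDC_WT (n = 8), by class and sorted within it; bars are the standard error of the fit, and colour marks genes with an adjusted p below 0.05. Galc, Asah1 and Psap lie furthest to the left, and Arsb, Naaa and Ifi30 are the 3 genes that were higher in pDC_TG.

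The sphingolipid genes Asah1 and Psap had the largest changes among the well expressed members. Asah1 encodes acid ceramidase, which splits ceramide into sphingosine and a fatty acid. It had 238, 194, 179 and 251 CPM in pDC_TG libraries 1 to 4, against 335 to 623 CPM (median 539) in pDC_WT. No libraries overlapped, and the level was 2.38-fold lower in pDC_TG (log2FC -1.25 ± 0.14, adjusted p 6.05e-08; ± gives the standard error of the fit). Psap had 3409, 3560.3, 3038 and 3867 CPM in pDC_TG, against 4930.4 to 8704 CPM (median 7194) in pDC_WT. It too was lower without overlap (log2FC -1.02 ± 0.16, adjusted p 1.8e-05), and its 2 lowest control libraries were pDC_WT replicates 8 and 5. Npc2, whose product hands cholesterol to the membrane transporter NPC1, had 298, 318, 369 and 391 CPM in pDC_TG, against 421 to 549.8 CPM (median 488) in pDC_WT. The libraries of the groups were again apart (log2FC -0.49 ± 0.11, adjusted p 0.00129). Ppt2, a thioesterase gene, had 18.8, 15.6, 13.7 and 24.0 CPM in pDC_TG, against 20.0 to 41.4 CPM (median 31.5) in pDC_WT. Its libraries overlapped through pDC_TG replicate 4 and pDC_WT replicate 8 (log2FC -0.78 ± 0.16, adjusted p 6.38e-04), and 43.1% of its exonic bases are shared with the predicted gene Gm20460. Gm2a, which encodes the GM2 activator that presents ganglioside to hexosaminidase, had 954, 981, 959.7 and 1179.8 CPM in pDC_TG, against 980.1 to 1379.9 CPM (median 1254) in pDC_WT. Its change was small and close to the threshold (log2FC -0.24 ± 0.08, adjusted p 0.0445), and it missed the threshold when any of 9 of the 12 pDC libraries was left out alone. Naaa, the gene of an amidase that breaks down anti-inflammatory fatty acid amides, went the other way, with 33.8, 33.3, 34.1 and 28.1 CPM in pDC_TG, against 12.6 to 27.5 CPM (median 22.1) in pDC_WT. Every pDC_TG library lay above every pDC_WT library (log2FC 0.61 ± 0.15, adjusted p 0.0048). Smpd1, Lipa and Ppt1 did not pass (log2FC -0.0022, -0.20 and -0.07).

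Among the membrane proteins 4 of 7 were lower in pDC_TG and none was higher. Scarb2 encodes LIMP-2, the receptor that brings glucocerebrosidase to lysosomes. It had 151, 141, 133 and 115 CPM in pDC_TG, against 214 to 281 CPM (median 252) in pDC_WT. The highest pDC_TG library lay well below the lowest control library (log2FC -0.89 ± 0.11, adjusted p 2.45e-07). Cd68, the gene of macrosialin, a heavily glycosylated protein of myeloid lysosomes, had 279, 232, 252 and 292 CPM in pDC_TG, against 391 to 554 CPM (median 480.5) in pDC_WT. Its groups did not overlap either (log2FC -0.82 ± 0.09, adjusted p 8.12e-08). Lamp2, one of the main proteins of the lysosomal membrane, had 428, 439, 432 and 417 CPM in pDC_TG, against 534 to 787 CPM (median 673) in pDC_WT. It was lower in every pDC_TG library (log2FC -0.63 ± 0.09, adjusted p 6.26e-06). Mcoln1, the gene of a calcium channel of the lysosome, had 26.6, 39.8, 36.4 and 32.7 CPM in pDC_TG, against 35.7 to 65.8 CPM (median 52.3) in pDC_WT. Its libraries overlapped through pDC_WT replicate 5 (log2FC -0.61 ± 0.16, adjusted p 0.0086), and it missed the threshold without pDC_TG replicate 1 (adjusted p 0.0532). Lamp1, the closest relative of Lamp2, averaged 375 ± 45.6 CPM in pDC_TG and 427 ± 24.3 CPM in pDC_WT and did not pass (log2FC -0.19 ± 0.12, adjusted p 0.33). Npc1, the cholesterol exporter of the lysosomal membrane, had 103, 88.7, 85.8 and 85.1 CPM in pDC_TG, against 108 to 151 CPM (median 114) in pDC_WT. Its libraries did not overlap but its adjusted p was 0.0673, and it passed when the pDC groups were fitted without the cDCs (adjusted p 0.0146). Cd63 was low in both pDC groups, at 1.86 ± 0.494 CPM in pDC_TG and 1.97 ± 1.45 CPM in pDC_WT.

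Glycosidases and sulfatases had 6 members lower and 1 higher of 16. Hexa encodes the alpha subunit of beta-hexosaminidase, the enzyme that Gm2a assists. It had 205, 244, 225 and 247 CPM in pDC_TG, against 309 to 393 CPM (median 357) in pDC_WT. The ranges were separate (log2FC -0.63 ± 0.08, adjusted p 3.32e-07). Man2b1, the lysosomal alpha-mannosidase gene, had 272, 231, 154 and 188 CPM in pDC_TG, against 239.9 to 431 CPM (median 355) in pDC_WT. The overlap came from pDC_TG replicate 1 and pDC_WT replicate 8 (log2FC -0.72 ± 0.14, adjusted p 5.06e-04). Gusb, which encodes beta-glucuronidase, had 72.7, 72.3, 94.8 and 93.1 CPM in pDC_TG, against 101 to 198 CPM (median 120.5) in pDC_WT. All pDC_TG values were below the lowest pDC_WT value (log2FC -0.64 ± 0.13, adjusted p 5.33e-04). Gaa, the gene of the acid glucosidase that degrades glycogen, had 150.0, 123, 92.9 and 117 CPM in pDC_TG, against 129.7 to 242 CPM (median 186) in pDC_WT. Again pDC_TG replicate 1 overlapped with pDC_WT replicate 8 (log2FC -0.62 ± 0.15, adjusted p 0.00369). Glb1, the lysosomal beta-galactosidase gene, had 37.5, 39.8, 40.6 and 35.8 CPM in pDC_TG, against 41.3 to 64.7 CPM (median 55.3) in pDC_WT. The groups were apart by a small margin (log2FC -0.49 ± 0.13, adjusted p 0.00684). Galc, the galactosylceramidase gene, had the largest fold change of the module but a low level, with 1.61, 1.74, 1.66 and 1.44 CPM in pDC_TG, against 5.17 to 10.9 CPM (median 8.27) in pDC_WT. It was 4.99-fold lower without overlap (log2FC -2.32 ± 0.27, adjusted p 1.74e-07). Arsb, a sulfatase gene, was higher, with 104, 102, 103 and 84.8 CPM in pDC_TG, against 29.6 to 86.1 CPM (median 64.1) in pDC_WT (log2FC 0.68 ± 0.17, adjusted p 0.0042). Only pDC_TG replicate 4 reached into the control range, and 59.7% of the exonic bases of Arsb are shared with predicted genes on the other strand. Arsb missed the threshold with WT replicates 1 to 4 as the only controls (adjusted p 0.056). The 9 members of the class that did not pass had log2FC values between -0.45 (Arsa) and 0.26 (Gla).

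Among the proteases 3 of 14 tested were lower in pDC_TG and none was higher. Ctsb, the gene of the cysteine protease cathepsin B, had 3764, 3466, 3526 and 3891 CPM in pDC_TG, against 5257 to 6312 CPM (median 5738) in pDC_WT. The groups were far apart relative to their spread (log2FC -0.64 ± 0.06, adjusted p 5.71e-10). Ctsh, an aminopeptidase gene, had 1642, 1949, 2049 and 1895 CPM in pDC_TG, against 2077 to 2687 CPM (median 2461) in pDC_WT. It was lower without overlap (log2FC -0.36 ± 0.08, adjusted p 0.00216). Ctss, the protease that completes invariant chain breakdown in many antigen-presenting cells, had 1111, 1080.4, 1028 and 1064 CPM in pDC_TG, against 1279.9 to 1483 CPM (median 1366) in pDC_WT. All of its pDC_TG libraries lay below the controls (log2FC -0.36 ± 0.06, adjusted p 1.16e-04). Ctsl, the gene of cathepsin L, had 1372, 1255, 1206 and 1457 CPM in pDC_TG, against 1669.7 to 2048 CPM (median 1842) in pDC_WT. It did not overlap but did not pass (log2FC -0.47 ± 0.18, adjusted p 0.0717), whereas it passed when the pDC groups were fitted without the cDCs (adjusted p 0.0005). The other 10 tested proteases had log2FC values between -0.26 (Ctsf) and 0.23 (Ctsa), and among them the aspartic protease genes Ctsd and Ctse were at -0.03 and -0.02.

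Among the 4 regulators and other lumenal proteins, Grn, the gene of progranulin, a secreted protein that also acts in lysosomes, had 3094, 2509, 2377 and 2539.9 CPM in pDC_TG, against 2495 to 4478 CPM (median 3649) in pDC_WT. It was lower with an overlap that came from pDC_WT replicates 5 and 8 (log2FC -0.47 ± 0.12, adjusted p 0.00847). Cst3 had 739.5, 645, 771 and 786 CPM in pDC_TG, against 865 to 1082 CPM (median 1016) in pDC_WT. No libraries of the groups overlapped (log2FC -0.44 ± 0.08, adjusted p 2.14e-04). Ifi30, the gene of the thiol reductase GILT that opens disulfide bonds of antigens, was higher, with 279.8, 421, 374 and 435 CPM in pDC_TG, against 229 to 328 CPM (median 283) in pDC_WT. Of the pDC_TG libraries, replicate 1 lay within the control range (log2FC 0.43 ± 0.09, adjusted p 0.00171). Tfeb itself averaged 103 ± 23.1 CPM in pDC_TG and 91.4 ± 19.3 CPM in pDC_WT and did not pass (log2FC 0.17 ± 0.14, adjusted p 0.495).

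**Figure D4:**
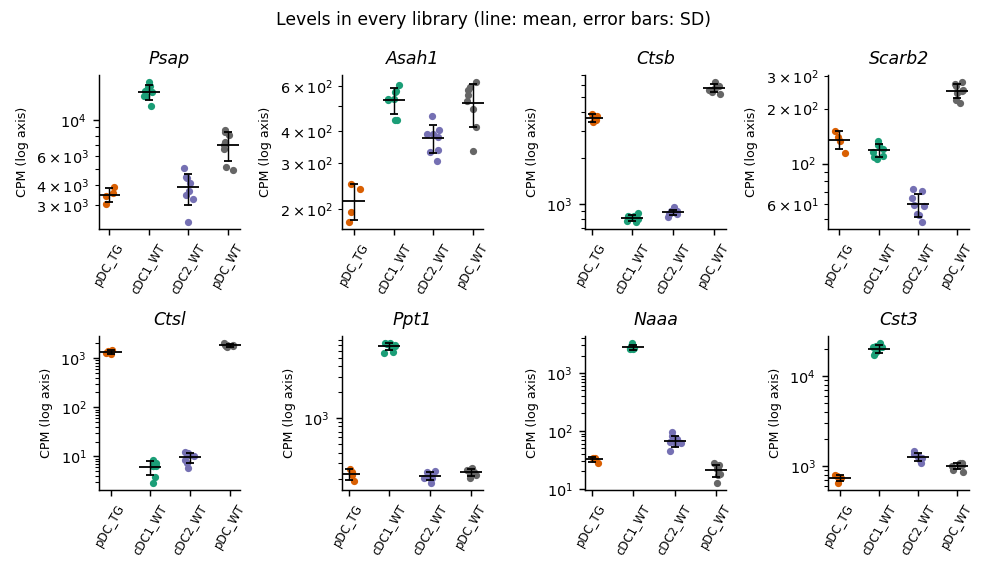
CPM of 8 lysosomal genes in every library (log axes, each panel with its own range), for pDC_TG (n = 4), cDC1_WT, cDC2_WT and pDC_WT (n = 8 each); horizontal lines are means and error bars SD. Psap, Asah1, Ctsb and Scarb2 are lower in pDC_TG than in pDC_WT without overlap, Ctsl is at most 12.6 CPM in either cDC group, and Ppt1, Naaa and Cst3 are far higher in cDC1_WT than elsewhere.

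Other lists of the lysosomal pathway held calls in both directions, compared with 7.04% of all genes tested that were lower and 7.72% that were higher in pDC_TG. These lists, too, were chosen with earlier results of these data known. Among 20 other genes of lysosomal hydrolases and related enzymes, not all of them hydrolases, 7 were lower (35.0%) and 2 higher (10.0%). Sumf1, whose product activates sulfatases in the endoplasmic reticulum, averaged 68.6 ± 4.82 CPM in pDC_TG and 103 ± 7.66 CPM in pDC_WT (log2FC -0.58, adjusted p 7.99e-07). Acp5, the tartrate-resistant acid phosphatase gene, was higher, at 45.3 ± 3.85 CPM in pDC_TG and 14.4 ± 3.28 CPM in pDC_WT (1.65, adjusted p 1.78e-08). The V-ATPase is the proton pump that acidifies lysosomes, and of 17 tested subunit genes 5 were lower (29.4%) and 1 was higher (5.88%). Its Atp6v1d averaged 118 ± 17.5 CPM in pDC_TG and 216 ± 12.2 CPM in pDC_WT (-0.87, adjusted p 1.49e-09), and Tcirg1 averaged 161 ± 22.5 and 253 ± 52.2 CPM in those groups (-0.65, adjusted p 6.77e-04). The one that was higher, Atp6v0a1, averaged 98.2 ± 13.7 CPM in pDC_TG and 40.0 ± 8.04 CPM in pDC_WT (1.30, adjusted p 5.91e-07). Tcirg1 and Atp6v0a1 encode alternative forms of the same subunit.

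Sorting of new hydrolases to lysosomes uses mannose 6-phosphate receptors and sortilin, and of 9 genes of this list 2 were lower (22.2%, compared with 7.04% of all genes) and 1 was higher (11.1%, compared with 7.72%). With lists this short, 1 call is near the share of all genes. Sort1, the sortilin gene, averaged 73.5 ± 20.8 CPM in pDC_TG and 143 ± 20.0 CPM in pDC_WT (log2FC -0.96, adjusted p 8.97e-05), and M6pr averaged 344 ± 39.3 and 450.0 ± 26.7 CPM (-0.39, adjusted p 9.33e-05). Gga2, an adaptor gene, averaged 41.7 ± 7.00 CPM in pDC_TG and 24.8 ± 3.76 CPM in pDC_WT (0.75, adjusted p 0.0118). Of 10 genes of the TFEB-related factors and their regulators, 1 was lower and 1 higher, a share near that of all genes. Rragc was lower (153 ± 8.02 CPM in pDC_TG and 219 ± 18.1 CPM in pDC_WT, -0.51, adjusted p 8.68e-06). The call of Tfec as higher rested on 0.401 ± 0.487 CPM in pDC_TG and no count in pDC_WT. Among 4 tested cysteine protease inhibitors Cst7, the gene of cystatin F, was higher (7.45 ± 1.27 CPM in pDC_TG and 2.11 ± 0.588 CPM in pDC_WT, 1.82, adjusted p 0.00223). Among 18 other tested lysosomal membrane proteins and transporters, 2 were lower (11.1%) and 1 was higher (5.56%). The nucleoside transporter gene Slc29a3 (-0.57, adjusted p 0.00672) and Laptm4b (-0.82, adjusted p 0.0203) were lower and the cation channel gene Tpcn1 was higher (4.69 ± 1.76 CPM in pDC_TG and 0.433 ± 0.310 CPM in pDC_WT, 3.43, adjusted p 4.09e-05). AP-3 is an adaptor complex that sorts membrane proteins to lysosomes and HOPS tethers lysosomes before fusion, and 3 of 12 genes of this list (25.0%), all of AP-3, were lower: Ap3b1 (-0.38, adjusted p 0.0152), Ap3d1 (-0.46, adjusted p 0.0374) and Ap3m1 (-0.42, adjusted p 0.0161).

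Compared with control pDCs, cDC1 had far fewer transcripts of nearly all proteases and more of most lipid hydrolases. Of the 50 tested members, 14 were higher in cDC1_WT (28%, compared with 30.6% of all genes) and 29 were lower (58%, compared with 30.3%), while 60.9% of all genes passed in either direction. The members' median log2FC was -0.73 and that of all genes -0.03. Of the 14 tested proteases 13 were lower and none was higher, and these 13 were lower without overlap between the groups, compared with 14.3% of all genes tested. The lipid class had 6 of 9 members higher and 2 lower, glycosidases and sulfatases 6 higher and 6 lower of 16, and membrane proteins 1 higher and 6 lower of 7. When libraries were scaled by total counts alone, the median of all genes moved to -0.28 (-0.16 for cDC2_WT against pDC_WT and -0.11 for cDC1_WT against cDC2_WT) and 36.6% of all calls were higher in cDC1_WT, against 50.3% with TMM scaling, while the members split into 13 higher and 32 lower.

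Naaa rose the most of the members called in cDC1_WT against pDC_WT, with 2602 to 3314 CPM (median 2683) in cDC1_WT, against 12.6 to 27.5 CPM (median 22.1) in pDC_WT. The fitted level was 131-fold higher in cDC1_WT (log2FC 7.03 ± 0.16, adjusted p 1.64e-25). Ppt1, the gene of the thioesterase that removes palmitate from proteins, had 5644 to 7363 CPM (median 6958) in cDC1_WT, against 201 to 263 CPM (median 238) in pDC_WT. This was 28.3-fold higher in cDC1_WT (log2FC 4.83 ± 0.09, adjusted p 7.19e-28). Cst3 had 17445 to 23643 CPM (median 20501) in cDC1_WT, against 865 to 1082 CPM (median 1016) in pDC_WT. It was higher in every cDC1_WT library (log2FC 4.34 ± 0.08, adjusted p 2.35e-28). Cd63, a tetraspanin of late endosomes, had 28.4 to 140.4 CPM (median 55.1) in cDC1_WT, against 0.337 to 5.14 CPM (median 1.69) in pDC_WT. Its spread was wide within both groups, which did not overlap (log2FC 4.99 ± 0.38, adjusted p 2.74e-12). Psap, already the leading gene of pDCs, was higher still in cDC1_WT, with 12123 to 17247 CPM (median 14942) there, against 4930.4 to 8704 CPM (median 7194) in pDC_WT (log2FC 1.09, adjusted p 7.63e-09). Other called members that were higher included Gusb (3.23), Arsb (2.66), the fucosidase gene Fuca1 (2.51), Gm2a (2.24), Ppt2 (2.20), Galc (2.16), the acid lipase gene Lipa (1.95) and Man2b1 (1.80), given as log2FC.

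Ctsl had the largest fall among members with more than 1 count in cDC1_WT, with 2.89 to 8.28 CPM (median 6.45) in cDC1_WT, against 1669.7 to 2048 CPM (median 1842) in pDC_WT. The level was 299.9-fold lower in cDC1_WT (log2FC -8.23 ± 0.20, adjusted p 1e-24), and 28.2% of the exonic bases of Ctsl are shared with 2 predicted genes. Ctsw, the gene of a cathepsin best known from natural killer and CD8 T cells, had 1 count in all cDC1_WT libraries together, against 8.05 to 19.7 CPM (median 14.1) and 2921 counts in pDC_WT. The ratio of pDC_WT over cDC1_WT was 2693 (95% interval 483 to 106421, counting error only). Ctsf had no count in cDC1_WT, against 466 counts in pDC_WT, and was at least 143-fold lower in cDC1_WT by a floor of 3 counts over the group. Ctsd, the gene of the aspartic protease cathepsin D, had 18.4 to 34.6 CPM (median 27.0) in cDC1_WT, against 295 to 410.3 CPM (median 375) in pDC_WT. It was 13.4-fold lower in cDC1_WT without overlap (log2FC -3.74 ± 0.12, adjusted p 3.95e-22). Of the exonic bases of Ctsd, 31.5% are shared with the predicted gene Gm49369. Npc1 had 10.0 to 19.8 CPM (median 12.0) in cDC1_WT, against 108 to 151 CPM (median 114) in pDC_WT. This too was a difference without overlap (log2FC -3.25 ± 0.14, adjusted p 1.84e-18). Further called members that were lower included Ctsb (-2.80), Ctsa, the gene of the serine carboxypeptidase that protects beta-galactosidase (-2.51), Ctso (-2.41), Grn (-2.27), Ctsh (-2.08) and Lamp2 (-1.74), given as log2FC. The smallest changes among the called proteases were those of Ctss, Ctsz and Lgmn (-0.87, -0.74 and -0.56). Members not called were Ctse, Gla, Glb1, Hexa, Sgsh, Asah1 and Ifi30, of which Hexa was at 0.07 and turned to -0.17 with total-count scaling (adjusted p 0.00853).

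**Figure D5:**
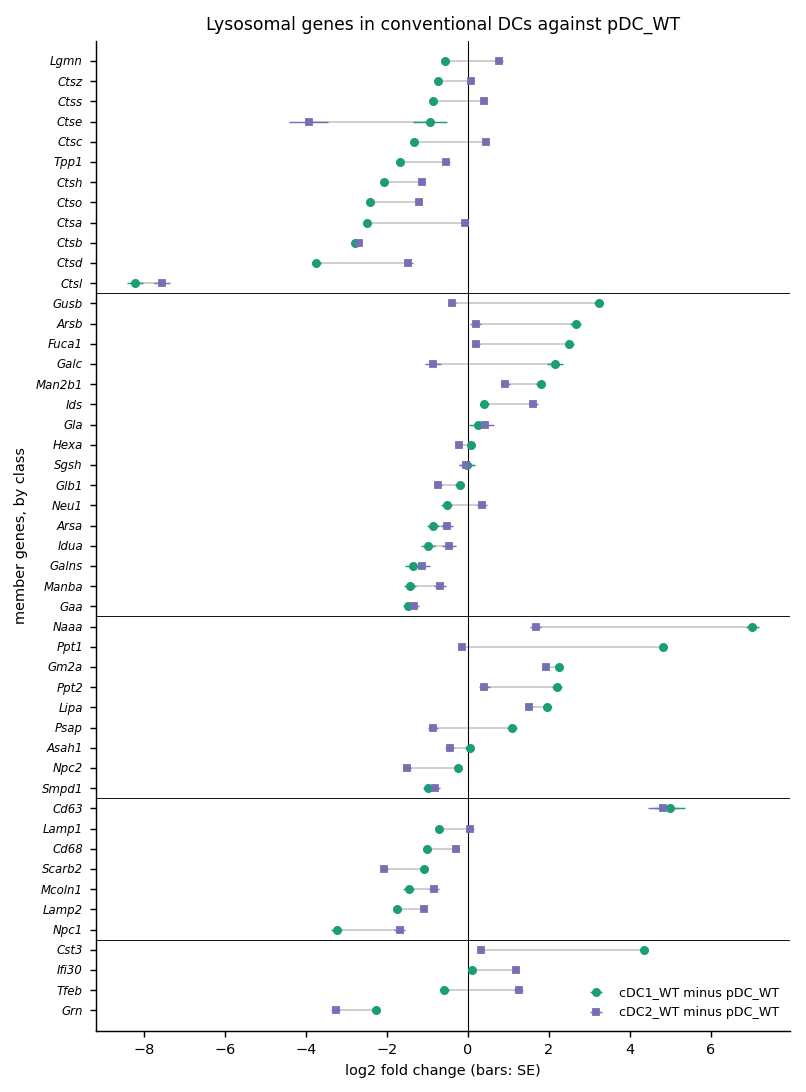
log2 fold change of each gene in cDC1_WT (circles) and cDC2_WT (squares) against the same pDC_WT libraries (n = 8 per group), by class and sorted by the cDC1_WT value; bars are the standard error of the fit. Ctsf and Ctsw, at or near 0 counts in cDC1_WT, are not drawn. Both comparisons share their pDC_WT libraries; cDC1_WT values for proteases lie mostly left of those for cDC2_WT.

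In cDC2 the protease genes split, with Ctsl, Ctsw and Ctsb far lower and Lgmn, Ctsc and Ctss higher than in control pDCs. Of the 50 tested members 14 were higher in cDC2_WT (28%, compared with 28.8% of all genes) and 28 were lower (56%, compared with 28.3%), out of 57.1% of all genes that passed, with a median log2FC of -0.42 for the members and -0.01 for all genes. Proteases were lower for 9 and higher for 3 of 14. Markers of macrophages were also present in these libraries, with Adgre1 at 370.4 CPM, Csf1r at 486 CPM, and C1qa, C1qb and C1qc at 25.4, 34.1 and 21.2 CPM in cDC2_WT, against 0.559, 3.77, 0.382, 0.775 and 0.509 CPM in pDC_WT. The 13 genes of the macrophage and monocyte list summed to 864 to 1135 CPM in cDC2_WT and to 1955 to 2611 CPM in pDC_WT, where Ly6c2 made up nearly all of the sum (2373 CPM). Their part in the lysosomal values of cDC2_WT was not tested.

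Cd63 rose the most of the members in cDC2_WT, with 27.7 to 78.5 CPM (median 52.8) in cDC2_WT, against 0.337 to 5.14 CPM (median 1.69) in pDC_WT. No libraries overlapped (log2FC 4.82 ± 0.38, adjusted p 5.66e-12). Gm2a had 4302 to 4939.8 CPM (median 4546) in cDC2_WT, against 980.1 to 1379.9 CPM (median 1254) in pDC_WT. It was 3.80-fold higher (log2FC 1.93 ± 0.07, adjusted p 1.68e-20). Naaa had 45.3 to 93.8 CPM (median 63.4) in cDC2_WT, against 12.6 to 27.5 CPM (median 22.1) in pDC_WT. The groups were apart (log2FC 1.67 ± 0.13, adjusted p 1.2e-12). Ids, the gene of a sulfatase that acts on heparan and dermatan sulfate, had 178 to 246 CPM (median 195) in cDC2_WT, against 42.5 to 92.9 CPM (median 62.8) in pDC_WT. All cDC2_WT values were above the pDC_WT range (log2FC 1.61 ± 0.11, adjusted p 2.18e-13). The proteases that were higher were Lgmn, the gene of asparaginyl endopeptidase (log2FC 0.77, adjusted p 5.11e-08), Ctsc, the gene of a dipeptidyl peptidase (log2FC 0.45, adjusted p 3.53e-06), and Ctss (log2FC 0.39, adjusted p 1.16e-07). Tfeb (log2FC 1.26, adjusted p 5.28e-11) and Ifi30 (log2FC 1.18, adjusted p 5.32e-14) were higher as well.

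Ctsl had 5.89 to 12.6 CPM (median 10.4) in cDC2_WT, against 1669.7 to 2048 CPM (median 1842) in pDC_WT. This was the largest fall of that comparison among members over 10 CPM in pDC_WT, 189-fold (log2FC -7.56 ± 0.19, adjusted p 3.88e-24). Ctsw had 0 to 1.48 CPM (median 0.0431) in cDC2_WT, against 8.05 to 19.7 CPM (median 14.1) in pDC_WT. Its counts in cDC2_WT, 72 in all, came from 4 of the 8 libraries (log2FC -5.31 ± 0.66, adjusted p 4.82e-08). Grn had 339 to 429 CPM (median 377) in cDC2_WT, against 2495 to 4478 CPM (median 3649) in pDC_WT. It was 9.60-fold lower (log2FC -3.26 ± 0.11, adjusted p 2.64e-21). Ctsb had 833 to 956 CPM (median 891) in cDC2_WT, against 5257 to 6312 CPM (median 5738) in pDC_WT. The difference exceeded the spread of both groups many times (log2FC -2.69 ± 0.05, adjusted p 9.56e-28). Scarb2 (-2.06), Npc1 (-1.68), Npc2 (-1.51), Ctsd (-1.48) and Gaa (-1.33) were also lower, given as log2FC. Ctse averaged 0.606 ± 0.699 CPM in cDC2_WT and 9.25 ± 2.87 CPM in pDC_WT (log2FC -3.94, adjusted p 3e-08). Ctsa, Ctsz, Lamp1 and Ppt1 were among the 8 members that did not pass (-0.08, 0.08, 0.06 and -0.15).

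Set directly against each other, cDC1 had less of nearly all proteases and more of most lipid hydrolases than cDC2. Of the 50 tested members 19 were higher in cDC1_WT than in cDC2_WT (38.0%, compared with 22.8% of all genes) and 24 were lower (48%, compared with 23.4%), while 46.2% of all genes passed. Proteases were lower in cDC1_WT for 13 of 14, and Ctse, an aspartic protease gene, was higher (4.85 ± 1.91 CPM in cDC1_WT and 0.606 ± 0.699 CPM in cDC2_WT, log2FC 3.00, adjusted p 3.19e-06). Lipid hydrolases and cofactors were higher in cDC1_WT for 8 of 9 and lower for none, with Smpd1, the acid sphingomyelinase gene, as the one that did not pass (log2FC -0.16, adjusted p 0.316). Glycosidases and sulfatases were higher for 7 and lower for 4 of 16, and membrane proteins higher for 1 (Scarb2, log2FC 0.98, adjusted p 2.97e-11) and lower for 5 of 7.

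The 4 largest rises were Naaa, Ppt1, Cst3 and Gusb. Naaa had 2602 to 3314 CPM (median 2683) in cDC1_WT, against 45.3 to 93.8 CPM (median 63.4) in cDC2_WT (log2FC 5.36 ± 0.15, adjusted p 6.02e-23). Ppt1 had 5644 to 7363 CPM (median 6958) in cDC1_WT, against 178 to 247 CPM (median 209) in cDC2_WT (log2FC 4.98 ± 0.09, adjusted p 1.43e-27). For both genes the lowest cDC1_WT library was far above the highest cDC2_WT library. Cst3 had 17445 to 23643 CPM (median 20501) in cDC1_WT, against 1072 to 1457 CPM (median 1262) in cDC2_WT (log2FC 4.01 ± 0.07, adjusted p 2.27e-27). Gusb had 1109 to 1407 CPM (median 1223) in cDC1_WT, against 82.8 to 116 CPM (median 97.4) in cDC2_WT (log2FC 3.62 ± 0.11, adjusted p 9.7e-22). Neither gene overlapped between the groups. Psap was 3.88-fold higher in cDC1_WT as well (log2FC 1.96 ± 0.13, adjusted p 7.77e-14).

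The 4 largest falls among members over 10 CPM were Ctsa, Ctsd, Tfeb and Ctsc. Ctsa had 94.9 to 128 CPM (median 104) in cDC1_WT, against 526 to 619.9 CPM (median 584) in cDC2_WT (log2FC -2.43 ± 0.08, adjusted p 2.68e-21). Of its exonic bases, 22.3% are shared with Neurl2 and Pltp on the other strand. Ctsd had 18.4 to 34.6 CPM (median 27.0) in cDC1_WT, against 105 to 154 CPM (median 131) in cDC2_WT (log2FC -2.27 ± 0.11, adjusted p 6.11e-17). Tfeb, the transcription factor gene, had 51.7 to 71.9 CPM (median 58.6) in cDC1_WT, against 202 to 248 CPM (median 212) in cDC2_WT (log2FC -1.84 ± 0.12, adjusted p 2.68e-14). These 3 were separate in every library. Ctsc had 138 to 176 CPM (median 156) in cDC1_WT, against 498 to 607 CPM (median 535) in cDC2_WT, again without overlap (log2FC -1.78 ± 0.07, adjusted p 1.65e-18). Ctsf had no count in cDC1_WT and 100 in cDC2_WT, at least 33.0-fold lower in cDC1_WT by the floor of 3 counts over the group. Ctsw had 1 count in cDC1_WT and 72 in cDC2_WT, a ratio of 71.3 for cDC2_WT over cDC1_WT (95% interval 12.4 to 2855, counting error only). Ctss (log2FC -1.25, adjusted p 1.11e-18), Lgmn (log2FC -1.34, adjusted p 1.14e-12) and Ifi30 (log2FC -1.07, adjusted p 1.11e-12) were also lower in cDC1_WT. Cd63, high in both conventional groups, did not pass between them (log2FC 0.17, adjusted p 0.706).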

How the data were processed

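Whole-number read counts per gene were deposited by the authors, 1 file for each of 28 libraries, and the same counts were used here. SMART-Seq v4 libraries, which keep no strand information, were sequenced after sorting, per the labels' protocols. TopHat2 2.1.0, SAMtools 0.1.18, Trimmomatic 0.35 and FastQC 0.11.4 and the build mm10 are named without an order, per the submitters' processing notes. The counting tool, its annotation and the flow cell of each library are not given in the sources used here. Reads where genes overlap may be assigned to either gene or dropped. The 5 summary lines of each file were left out of library sizes. Their share without a gene was 12.8% to 14.8% of a library in pDC_TG, 8.23% to 12.4% in cDC1_WT, 12.0% to 18.1% in cDC2_WT and 12.4% to 18.7% in pDC_WT.

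Genes were filtered with filterByExpr (minimum count 10, minimum total 15) and scaled by TMM. All 4 groups entered 1 model without a replicate block in edgeR 4.0.16 (limma 3.58.1, R 4.3.3), with robust two-sided quasi-likelihood tests, Benjamini-Hochberg adjustment over 13159 genes and a threshold of 0.05. CPM are TMM-scaled, and levels per kb use the exon lengths of GENCODE vM21 (GRCm38). A fold against a group with 0 counts was computed against a floor of 3 counts over the group, and intervals and floors cover counting error only. No libraries of a group were duplicates: over 90 pairs, chi-square divided by its degrees of freedom was at least 33.6 (genes with at least 20 counts). Values by library are given for members called in pDC_TG at 10 CPM or more in the higher group and, between WT groups, for the 4 called rises and 4 called falls of largest size at that level. Galc, Ctsl, Npc1 and Psap in cDC1_WT were added after their values were seen. The members and all lists were chosen with earlier results of these data known. Alternatives were DESeq2 1.42.0, RLE factors, total counts alone, no filter, a replicate block, the compared groups alone, WT replicates 1 to 4 or 5 to 8 alone and single pDC libraries left out.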

Additional observations from a re-analysis of the deposited data

Results flagged for a closer look

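Single libraries stood apart from the rest of their group for 15 of the 199 combinations of gene and group that were checked, and chance alone gives about 5%. Among the pDC_TG libraries, replicate 4, which held neutrophil transcripts, stood apart for 3 genes. Gm2a was at 1180 CPM there, against 954 to 981 CPM in replicates 1 to 3. Naaa was at 28.1 CPM there, against 33.3 to 34.1 CPM. Arsb was at 84.8 CPM, against 102 to 104 CPM. Lgmn was at 74.2 CPM in pDC_TG replicate 2, against 57.3 to 58.1 CPM in the others. The part of the neutrophil transcripts in these values was not tested.

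In cDC1_WT, Naaa (3314 CPM, others 2602 to 2913) and Ppt2 (175 CPM, others 122 to 145) were high in replicate 2. Cd63 was at 140 CPM in cDC1_WT replicate 8, against 28.4 to 70.9 CPM in the others, and the single Ctsw count of the group was in replicate 7 (0.0445 CPM). In cDC2_WT, Ctse was at 2.16 CPM in replicate 3 (others 0.0375 to 0.925), the library that also held all counts of Ctsk. Ids was at 246 CPM in replicate 6 (others 178 to 205), Tpp1 at 70.5 CPM in replicate 1 (others 88.2 to 102) and Man2b1 at 466 CPM in replicate 8 (others 627 to 765). In pDC_WT, Cd63 was at 5.14 CPM in replicate 5 (others 0.337 to 2.36), Gusb at 198 CPM in replicate 3 (others 101 to 140) and Arsa at 72.5 CPM in replicate 1 (others 32.5 to 43.5).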

How the results depend on the processing

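For pDC_TG against pDC_WT, 1013 of 1050 values of single members under the alternatives kept their side of the threshold, 21 lost the call and 16 gained one. Of the 1013, 46 values that were not called changed sign. The calls of Asah1, Psap, Scarb2 and Ctsb passed in every alternative run, and Gm2a passed in 7 of 21. When any single pDC library was left out, 3 to 4 members were higher and 18 to 21 lower in pDC_TG, and of all genes 792 to 1016 were higher and 708 to 936 lower. With only WT replicates 5 to 8 as controls, 15 members were lower and 4 higher, and Ctsl passed there (adjusted p 0.00495). With only WT replicates 1 to 4, 22 members were lower and 2 higher. pDC_WT replicates 5 or 8 were the lowest pDC_WT library for 14 of the 20 members lower in pDC_TG (70%). These replicates were also the lowest for 11 of the 30 other tested members (36.7%). With both left out, a setting chosen after seeing the data, 22 members were lower and 3 higher.

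Between WT groups, 438 of 450 values kept their side of the threshold for cDC1_WT against pDC_WT, 435 of 450 for cDC2_WT against pDC_WT and 389 of 398 for cDC1_WT against cDC2_WT, of which 6, 8 and 7 values that were not called changed sign. No call was reversed. Hexa in cDC1_WT against pDC_WT, not called with TMM scaling, changed sign to -0.17 and passed with total counts alone. With WT replicates 1 to 4 alone, 1872 genes were higher and 2049 lower in cDC1_WT against cDC2_WT. With all libraries 3003 were higher and 3082 lower, and with WT replicates 5 to 8 alone 2195 and 2347. The part of the number of libraries in these counts was not tested. Depth limits Ctsf and Ctsw in both cDC groups and Ctse in cDC2_WT, which have at most 111 counts in a group.

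Replicate numbers recur across groups, and libraries with the same number varied together weakly among the WT groups: the correlation of their deviations was -0.03 to 0.04 between pDC_TG and pDC_WT, 0.036 to 0.086 between cDC1_WT and pDC_WT, 0.025 to 0.090 between cDC2_WT and pDC_WT and 0.030 to 0.108 between cDC1_WT and cDC2_WT. Between libraries with different numbers the median correlations were 0.0004, -0.007, -0.009 and -0.011 in the same order. The number with the best match was the library's own for 2 of 4, 7 of 8, 6 of 8 and 8 of 8, a hint from the data and not from the design. Since no comparison had every correlation over 0.1, the numbers were not taken as pairs. With a replicate block, 3 members were higher and 21 lower in pDC_TG, 14 higher and 30 lower in cDC1_WT against pDC_WT, 14 higher and 29 lower in cDC2_WT against pDC_WT, and 19 higher and 24 lower in cDC1_WT against cDC2_WT.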

Other observations

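Levels of lysosomal genes outside the module also differed between the WT cell types, and the examples here were chosen after their values were seen (edgeR, adjusted p at most 5.29e-07 for cDC1_WT against pDC_WT). Slc11a1, which encodes the metal ion transporter NRAMP1 of phagosomes, averaged 252 ± 32.5 CPM in cDC1_WT, 28.7 ± 9.80 CPM in cDC2_WT and 0.0703 ± 0.184 CPM in pDC_WT. Laptm4b averaged 216 ± 36.4 CPM in cDC1_WT, 3.51 ± 1.91 CPM in cDC2_WT and 39.2 ± 6.98 CPM in pDC_WT. Acp2, a lysosomal acid phosphatase gene, averaged 16.3 ± 4.22 CPM in cDC1_WT, 63.1 ± 6.56 CPM in cDC2_WT and 0.644 ± 0.583 CPM in pDC_WT. Slc15a4, which encodes a histidine and peptide transporter needed for endosomal Toll-like receptor responses, averaged 48.8 ± 14.9 CPM in cDC1_WT, 244 ± 46.7 CPM in cDC2_WT and 311 ± 46.5 CPM in pDC_WT. Mcoln2, a relative of Mcoln1, averaged 0.629 ± 0.597 CPM in cDC1_WT, 0.503 ± 0.656 CPM in cDC2_WT and 19.3 ± 7.42 CPM in pDC_WT.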
